A study of Homo sapiens with 6 samples.

Results

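The replication-dependent cluster histone genes encode the H1, H2A, H2B, H3 and H4 proteins that package newly made DNA, and most of them lie in gene clusters on chromosomes 6 and 1. Members were chosen by name, as every symbol of the HIST1, HIST2, HIST3 and HIST4 clusters in 2 deposited tables. The rule itself uses no measured value, but it was set with earlier results of these data known. There were 39 such genes, of which 26 were among the 8121 genes of the translational efficiency table and 22 were among the 9570 transcripts of the codon occupancy table. By protein, 5 genes encoded linker histone H1, 10 encoded H2A, 12 encoded H2B, 4 encoded H3 and 8 encoded H4. Only 9 genes were in both tables, namely HIST1H1E, HIST1H1T, HIST1H2AC, HIST1H2AG, HIST1H2BD, HIST1H2BL, HIST2H2BF, HIST3H2A and HIST4H4.

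Both tables come from ribosome profiling, in which the stretches of mRNA shielded by ribosomes (ribosome-protected fragments, RPFs) are sequenced. HEK293 cells, an embryonic kidney line, gave 3 RPF libraries and 3 total RNA libraries made from the same lysates, all labelled as control siRNA. By the paper's methods the cells were treated with cycloheximide before lysis, and the lysis buffer also held it. The total RNA libraries of this experiment were depleted of rRNA and not described as selected for poly(A). There was no second condition, so the comparisons are between mRNAs within these cells, and the procedure was repeated in triplicate without a statement on how far apart the cultures were, so p-values measure the spread between these 3 samples.

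Cluster histone mRNAs are the only abundant animal mRNAs that end without a poly(A) tail. They are intronless, and they finish at a short stem-loop that the stem-loop binding protein SLBP holds during processing, export, translation and decay. Their supply is tied to S phase, and many gene copies encode the same or nearly the same protein. Stretches of sequence are shared between copies to differing degrees.

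The stem-loop is shown first because it is what marks these mRNAs, and because the copies differ in it. Sequences and coordinates come from GENCODE 44 on GRCh37, in which 37 of the 39 genes were matched (HIST1H2BF and HIST1H2BG were not). All 37 genes have 1 exon, and all 37 hold the letters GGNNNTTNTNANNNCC on the sense strand within 100 nt of the stop codon. The same letters were in 86 of 18935 such windows over all protein-coding genes (0.454%), the members included. The spelling was widened by 1 letter after HIST1H3E had been read, which otherwise fell outside it. In 5 examples the 16 nt core is in capitals.
HIST1H2AC, chr6:26124892-26124917, plus strand: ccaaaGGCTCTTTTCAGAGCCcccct
HIST1H1T, chr6:26107640-26107665, minus strand: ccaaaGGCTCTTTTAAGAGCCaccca
HIST1H4C, chr6:26104540-26104565, plus strand: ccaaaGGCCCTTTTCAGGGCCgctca
HIST1H2AG, chr6:27101289-27101314, plus strand: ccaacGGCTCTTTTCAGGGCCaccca
HIST1H3E, chr6:26225819-26225844, plus strand: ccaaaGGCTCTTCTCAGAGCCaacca
HIST1H2AC has the commonest core. HIST1H1T ends its loop in A, the H4 genes carry another pair of stem arms, and HIST1H3E has a loop letter that no other member has. The 2 arms pair by Watson-Crick rules at all positions in 36 of the 37 genes, and HIST1H2AG is the exception. A match of letters is a description and no measurement of processing.

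For 2 members the annotated 3′UTR ran far past the stem-loop, and for another the table held a longer 3′UTR than the annotation. HIST2H2BE had 1729 nt after the stem-loop and 604 codons of 3′UTR in the occupancy table, against a median of 23 codons over the 22 members. HIST2H2AA3 had 285 nt after it in the annotation. HIST1H2AE had 43 codons of 3′UTR in the table, the next highest number, but 70 nt in the annotation.

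Translational efficiency, here RPF signal divided by the mRNA level of a gene, was far above the typical mRNA for the cluster histones. Of the 26 members, 25 were higher than the median of all genes and 0 were lower by limma at an FDR of 0.05. The background must be read beside this, because 44.7% of all 8121 genes were called higher and 44.6% lower with replicates this close. The size sets the members apart more than the call. Their median ratio was 5.93, against 0.385 over all genes, 12 members exceeded a ratio of 10 and 6 exceeded 100. Members took 6 of the 10 highest places in the table and 9 of the 20 highest. These ratios were not compared with genes of the members' lengths. In codon occupancy, described below, the distance was smaller, with a median of 0.137 over 22 members against 0.0660 over transcripts of their lengths.

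**Figure D1:**
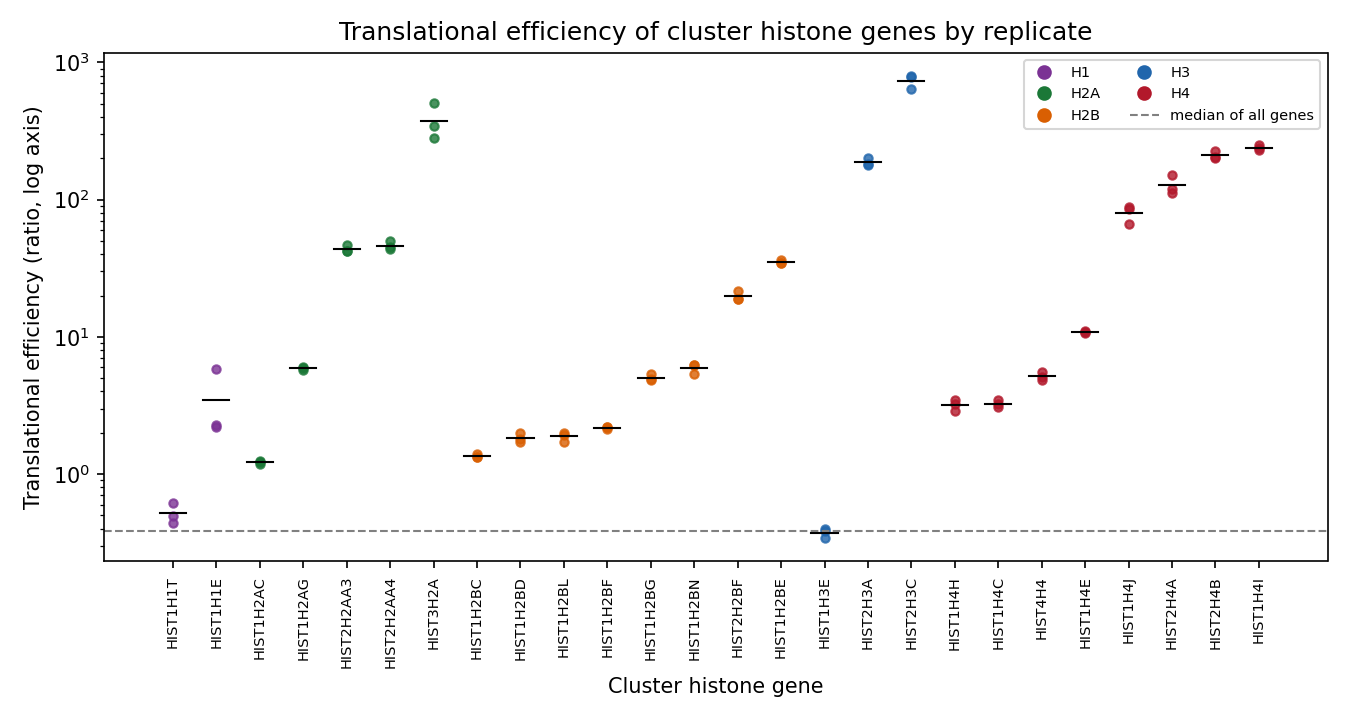
Translational efficiency (ratio, log axis) of the 26 cluster histone genes in the table, ordered by protein and then by mean. Each point is a replicate, black bars are means of 3 replicates and the dashed line is the median of all 8121 genes (0.385). Only HIST1H3E lies on that line.

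The linker histones, which bind DNA where it enters and leaves the nucleosome, were the lowest group, with a median ratio of 1.99 over 2 genes. HIST1H1E had ratios of 5.88, 2.22 and 2.26 in replicates 1, 2 and 3, so that replicate 1 stood apart. It was 2.98 above the median on the log2 scale (SE 0.30, adjusted p = 0.000355 by limma). HIST1H1T, the testis linker histone, had 0.443, 0.494 and 0.617. Its difference of 0.41 (SE 0.10, adjusted p = 0.0122 by limma) was the smallest among the called members. The 2 linker histone genes did not overlap in any replicate.

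The H2A genes, whose proteins pair with H2B in the nucleosome, spanned a wide range, with a median ratio of 43.7 over 5 genes. HIST3H2A (chr1:228645065-228645574, minus strand) had 502, 343 and 278 and was 9.85 above the median on the log2 scale (SE 0.17, adjusted p = 1.36e-06 by limma). Its largest and smallest replicates differed 1.81-fold, and HIST1H1E and HIST3H2A were the 2 members whose replicates differed by over 1.5-fold. The lowest H2A gene was HIST1H2AC, with 1.25, 1.23 and 1.19 (log2 difference 1.65, SE 0.05). HIST1H2AG lay between them at 5.78, 6.08 and 5.91. HIST2H2AA3 (41.9, 47.0 and 42.1) and HIST2H2AA4 (49.6, 45.1 and 43.4) overlapped, and their coding sequences of 393 nt are identical.

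The H2B genes were more even, with a median ratio of 3.60 over 8 genes. HIST1H2BE was the highest, at 34.3, 36.3 and 34.5, a log2 difference of 6.48 (SE 0.05). HIST1H2BC was the lowest, at 1.33, 1.34 and 1.39, a log2 difference of 1.79 (SE 0.05). The 2 coding sequences differ at 26 of 381 nt, and their replicates were far apart. HIST2H2BF followed the highest with 21.6, 18.7 and 18.8, and the remaining 5 H2B genes had means from 1.84 to 5.94.

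The H3 genes, whose protein forms the core of the nucleosome together with H4, held both extremes of the group. HIST2H3C (chr1:149812259-149812780, minus strand) had the highest translational efficiency of the whole table, with 637, 775 and 792, and was 10.86 above the median on the log2 scale (SE 0.08, adjusted p = 7.59e-07 by limma). HIST2H3A (chr1:149824170-149824687, plus strand) had 179, 199 and 182. The coding sequences of these 2 genes have 411 nt and 0 mismatches, so an RPF within them cannot be told apart by gene, yet the deposited ratios differed by 3.94-fold and did not overlap. HIST1H3E (chr6:26225363-26225844, plus strand) was the single member that was not called. Its ratios were 0.383, 0.342 and 0.396, a log2 difference of -0.04 (SE 0.06, 95% interval -0.20 to 0.12, adjusted p = 0.578 by limma), and it shared 5.73% of its coding 28-mers with other genes.

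The H4 genes, 8 in number, had a median ratio of 45.5. HIST1H4I (chr6:27107061-27107457, plus strand) was the highest, at 238, 230 and 250, a log2 difference of 9.25 (SE 0.05). HIST1H4H was the lowest, at 2.90, 3.47 and 3.22, a log2 difference of 3.02 (SE 0.07), and it overlapped HIST1H4C at 3.07, 3.47 and 3.23. HIST2H4B (202, 226 and 205) and HIST2H4A (112, 151 and 119) did not overlap, although their coding sequences of 312 nt are identical. HIST4H4, the H4 gene on chromosome 12, had 5.09, 4.86 and 5.55. Of the 3 pairs with identical coding sequences, the H3 pair and the H4 pair (1.65-fold) did not overlap and the H2A pair did.

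Because some copies are alike, the share of each coding sequence that also occurs elsewhere was set beside the ratio. The measure was the percentage of 28-mers that occur on the same strand in a transcript of another gene. The shortest RPF that the authors kept has 28 nt, and a longer one can still differ between genes. Over the 24 members with a matched sequence the ratio and this percentage moved together, with a Spearman coefficient of 0.63. With 75-mers, counted over the whole transcript and not the coding sequence alone, the coefficient was 0.55. These genes share sequence with each other and are not independent. The 10 members with over 50% of shared 28-mers had a median ratio of 63.0, and the 14 members with 50% or less had 3.36. HIST3H2A (12.3% shared) and HIST1H4I (25.3%) were as high as the fully shared H4 genes with little shared sequence. HIST1H2BL (59.6%), with 2.01, 1.94 and 1.72, was low with much of it.

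**Figure D2:**
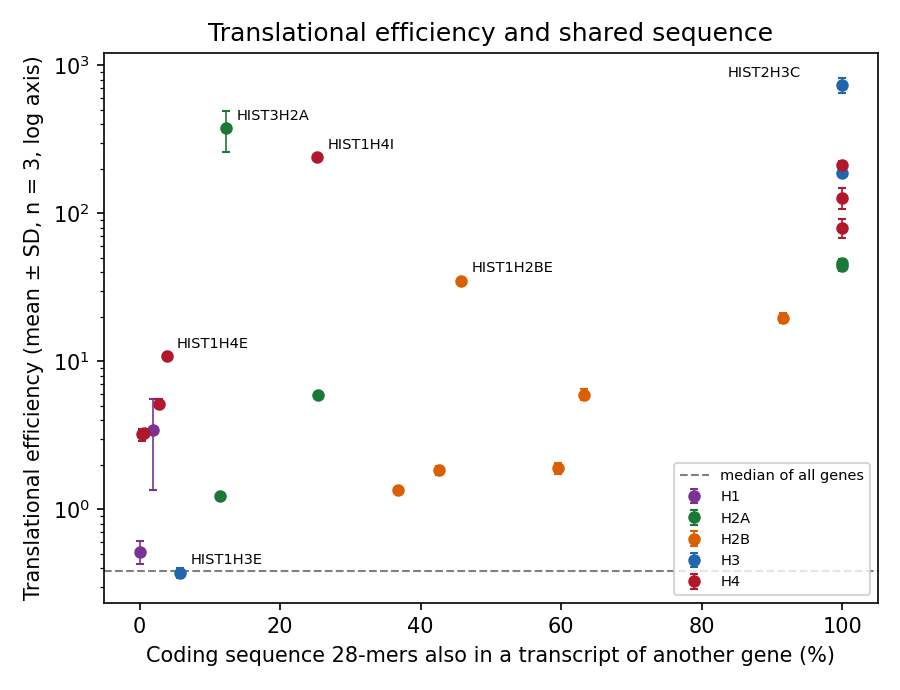
Translational efficiency (mean ± SD of 3 replicates, log axis) against the percentage of coding 28-mers that also occur in a transcript of another gene, for the 24 matched members. The 7 points at 100% lie above 40, and HIST3H2A and HIST1H4I lie high with under 30% shared.

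Position in the genome moved with the same values. The 8 members on chromosome 1 had mean ratios from 19.7 to 735, with a median of 157. The 15 members on chromosome 6 had means from 0.374 to 239, with a median of 3.26. The part of shared sequence in the difference between the chromosomes was not tested, and the sources used here do not say how reads that fit several genes were placed.

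Replacement histones, variants that lie outside these gene clusters, served for comparison. Of 12 listed replacement histone genes, 11 were in the table, 9 were called higher and 2 lower, against 44.7% and 44.6% of all genes. Their median ratio was 1.04. The 2 called lower were H2AFY, with a mean of 0.279, and CENPA, with 0.254. H3F3A had 38.0, 38.4 and 41.1, just below the HIST2 genes of H2A, while H3F3B, which encodes the same H3.3 protein, had 0.636, 0.675 and 0.656. H2AFZ, the variant H2A.Z, had 6.18, 6.67 and 6.24, and H2AFX, the variant phosphorylated at DNA breaks, had 0.922, 0.858 and 0.820. For the linker histones H1F0 (2.56, 2.08 and 2.20) and H1FX (1.61, 1.85 and 1.68) lay inside the range of the 2 cluster linker genes.

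The genes that process and degrade cluster histone mRNA lay on both sides of the typical mRNA. Of 23 listed pathway genes 19 were in the table, with 9 called higher, 6 lower and 4 neither, against 44.7% and 44.6% of all genes, and a median ratio of 0.472. The highest was CPSF2, a subunit of the cleavage complex, at 3.12, 2.95 and 3.15, above several cluster histones. NCBP1, a cap-binding protein, followed at 1.84, 1.89 and 1.85. SLBP had 0.861, 0.874 and 0.809, and NPAT, which activates the histone gene clusters, had 0.547, 0.441 and 0.439. CASP8AP2, its partner at the clusters, was not called at 0.472 ± 0.136 (SD, n = 3). The U7 snRNP proteins, which direct cleavage after the stem-loop, lay on both sides of the median. LSM11 had 0.569, 0.585 and 0.610 and was called higher, whereas LSM10 had 0.214, 0.171 and 0.219 and was called lower. UPF1, which acts in the decay of histone mRNA, had 0.527, 0.538 and 0.495.

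Histone chaperones also lay on both sides, with a median ratio of 0.700. Of 23 listed genes 19 were in the table. Of these, 12 were called higher, 6 lower and 1 neither, against 44.7% and 44.6% of all genes. The highest was ASF1A, with a mean of 3.32. The genes called lower were MCM2, HJURP, ATRX, TONSL, UBN1 and HIRA, with log2 differences from -0.45 to -1.45. Among the factors that carry new H3 and H4 to the replication fork, CHAF1B had 2.13, 2.18 and 2.12 and CHAF1A had 0.770, 0.710 and 0.677. HAT1, which acetylates new H4, had 1.61, 1.53 and 1.52. NASP, an H3 and H4 carrier, had 0.680, 0.688 and 0.733, and ASF1B was not called at 0.408, 0.446 and 0.396.

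The occupancy table gives, codon by codon and in the reading frame, the RPFs of each mRNA divided by its abundance, with the replicates combined by the authors, so its values carry no replicate error and none of them was tested. Mean occupancy over the CDS had a median of 0.137 over the 22 members, against 0.0450 over all transcripts and 0.0660 over the 1483 transcripts of the members' lengths (104 to 222 codons). All but HIST1H1T lay above both medians. With the median over codons in place of the mean, 12 of 22 lay above transcripts of the same length (0.0170 against 0.0145). The highest in each core group were HIST2H2BE at 0.948, HIST1H2AL at 0.677, HIST4H4 at 0.326 and HIST1H3D at 0.106, the last 2 being alone in their groups. Among linker histones HIST1H1A was the highest at 0.480, and HIST1H1T the lowest of all members at 0.0368. The lowest H2A gene was HIST1H2AE at 0.104 and the lowest H2B gene was HIST1H2BJ at 0.0900. Over codons with a unique 28 nt window these ranks changed, as HIST1H2AE had 0.106, above all H2A genes but HIST1H2AL (0.293), and HIST3H2BB fell from 0.280 to 0.0453, below HIST1H2BJ (0.0716). The H2A group median then was 0.0766 in place of 0.134. It rested on only 7 such codons in HIST1H2AD and 25 in HIST1H2AM. For HIST1H2AM, transcripts listed under the H3 gene H3C12 hold 319 of its 366 coding 28-mers, and any further gene holds at most 58. The replacement histones, 9 of which were in the table, had a median of 0.109, inside the range of the members.

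The depth behind these values could be read from their low end, where values are multiples of what 1 read adds. Steps were found for 17 of the 22 members. They gave about 432 in-frame reads for the CDS of HIST1H1T and about 237603 for HIST2H2BF. HIST1H1T therefore has the least precise profile of these 17.

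The 9 genes in both tables did not keep the same order. Their mean ratios ranged 724-fold and their CDS occupancy 10.7-fold, with a Spearman coefficient of 0.38, against 0.69 over the 6912 genes that the tables share. HIST3H2A was first by ratio and the third by occupancy (0.198). HIST1H2BL was first by occupancy (0.393) and the sixth by ratio. Both measures use the same RPF libraries.

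RPFs were concentrated at few codons. The highest codon held a median of 16.9% of a member's CDS occupancy, against 4.95% over all transcripts and 8.88% over transcripts of the same length. The 10 highest codons held 62.8%, against 27.6% over all transcripts and 44.9% over those of the same length. The most uneven were HIST1H1A, in which codon 78 (AAG) alone held 45.2%, HIST1H3D, in which codon 90 (GTG) held 44.2%, and HIST4H4, in which codon 82 (GTC) held 24.2%. The least uneven were HIST1H1T (6.32%) and HIST1H1C (6.65%).

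Occupancy was also uneven along the coding sequence, and in most members it was lower at its beginning than at its end. With each CDS cut into 3 equal parts, the ratio of the mean in the first part to that in the last had a median of 0.345 over members, against 1.04 over all transcripts and 0.885 over those of the same length, and it was below 1 in 19 of 22. It was lowest in HIST4H4 (0.00973, from 0.00852 to 0.876) and HIST3H2A (0.0104, from 0.00507 to 0.487). It exceeded 1 in HIST1H1C (1.45), HIST1H1E (1.45) and HIST3H2BB (2.03). All 8 H2A genes and HIST4H4 were highest in the last part of the CDS, and all 7 H2B genes, HIST1H1A, HIST1H1D and HIST1H3D were highest in the middle. The replacement histones had a median of 0.718. Over codons whose 28 nt window occurs in no other gene the ratio could be taken for 19 members and was below 1 in 13, with HIST1H2BD (4.79), HIST2H2BE (2.37) and HIST1H2BJ (1.69) then above 1.

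**Figure D3:**
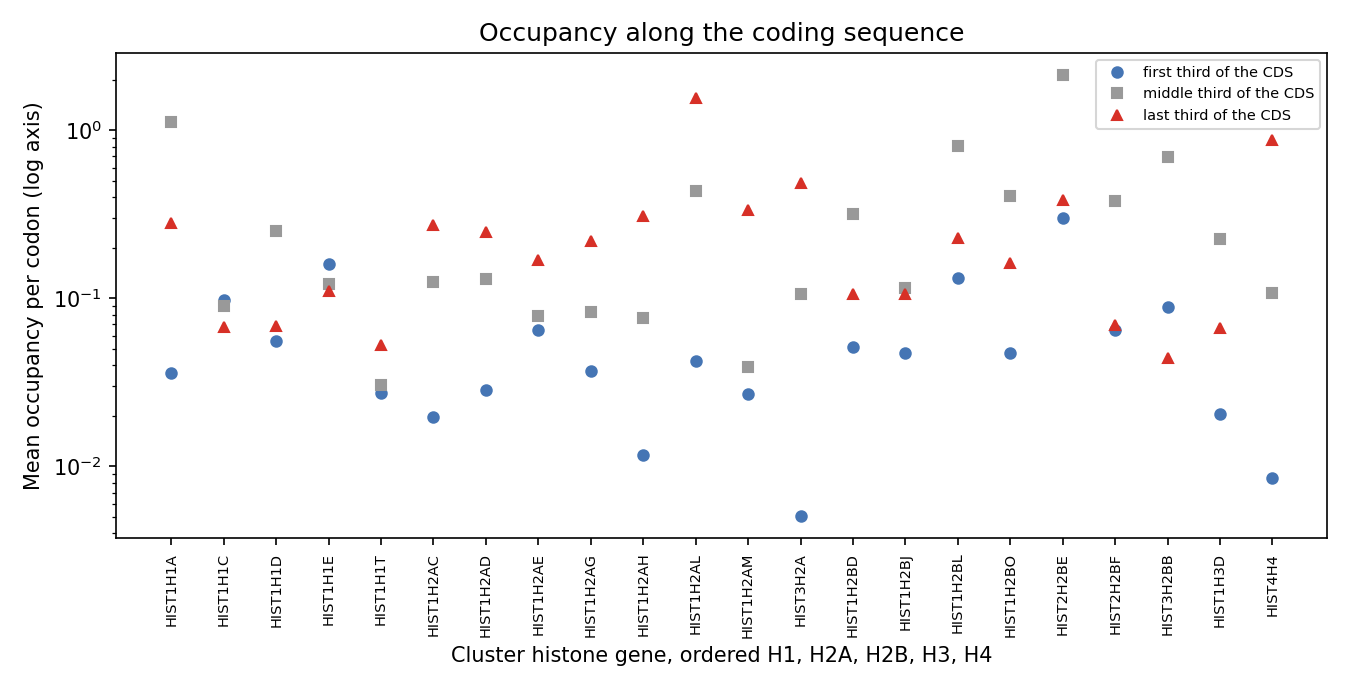
Mean occupancy per codon (authors' values, log axis) in the first, middle and last of 3 equal parts of the CDS of the 22 members. The last part is the highest in all 8 H2A genes and in HIST4H4, and the middle part in all 7 H2B genes.

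The codons that carried the occupancy were the same ones in most genes of a family. Codons are counted from 1 at the start codon. In the 7 H2A genes of 131 codons, codon 94 had a median of 19.7 times the mean of its own CDS and was the highest codon in 5, and codon 90 (AAC) had 17.7 times and was among the 10 highest in all 7. The stretch from codon 89 to codon 93 was high as well, with medians from 6.53 to 8.31 times outside codon 90, and codon 122 (GAG) had 4.43 times. In the 7 H2B genes codon 67 was the highest in 6. Most 28 nt windows at codons 89 to 94 of H2A and codon 67 of H2B also occur in other genes. At codon 94 the window was unique in 2 of the 7 H2A genes, HIST1H2AC with the peak and HIST1H2AE without it. At codon 67 it was unique in 2 of the 7 H2B genes, HIST1H2BO with the peak and HIST1H2BJ without it. Codon 90 had a unique window in 1 gene. Profiles correlated with a median Spearman coefficient of 0.70 over the 21 H2A pairs (0.39 to 0.80) and 0.83 over the 21 H2B pairs (0.69 to 0.95), against 0.11 over 56 pairs of an H2A with an H2B gene. Only codons whose 28 nt window occurs in no other gene gave 0.56 and 0.70 over 15 pairs each. The pairs share genes and libraries, so these are descriptions.

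**Figure D4:**
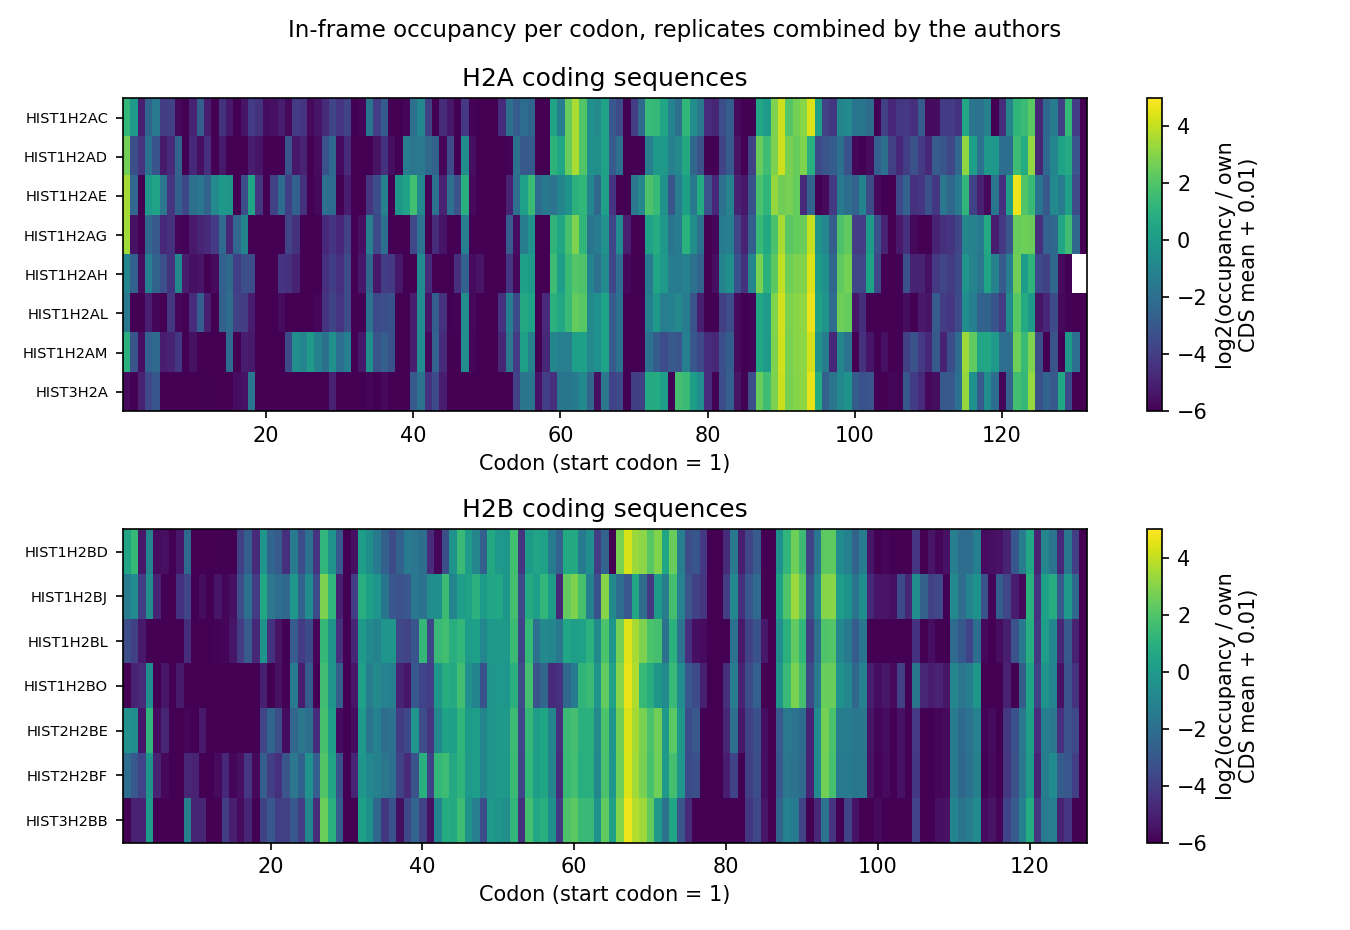
Occupancy of each codon relative to the mean of its own CDS (log2 of the ratio plus 0.01, colour) along the 8 H2A and the 7 H2B coding sequences. Bright columns mark codons 89 to 94 in H2A and codon 67 in H2B, where HIST1H2AE (codon 94) and HIST1H2BJ (codon 67) stay dark.

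Members without a family's peak differed from the others in the sequence there. The 28 nt windows that begin 13 nt before codon 67 of H2B are given here because the occupancy at that codon splits by them, with the codon itself in capitals.
HIST2H2BE, chr1:149857978-149858005, minus strand: catgaactccttcGTCaacgacatcttc
HIST1H2BD, chr6:26158583-26158610, plus strand: catgaattccttcGTCaacgacatcttc
HIST3H2BB, chr1:228646016-228646043, plus strand: catgaactccttcGTCaatgacatcttc
HIST1H2BO, chr6:27861426-27861453, plus strand: catgaactccttcGTCaatgacatcttt
HIST1H2BJ, chr6:27100317-27100344, minus strand: catgaattcgtttGTGaacgacattttc
HIST2H2BE, HIST2H2BF and HIST1H2BL have the same window, which occurs in 7 other genes in each case, and their occupancy at codon 67 was 20.5, 3.62 and 8.73. Relative to the mean of the own CDS these were 21.6, 20.9 and 22.2 times. HIST1H2BD and HIST3H2BB, with 1 mismatch to that window, had 20.0 and 26.2 times, and HIST1H2BO, with 2, had 25.1 times. HIST1H2BJ, with 5 mismatches, had an occupancy of 0.0104 at this codon, 0.115 times its own mean. Its own highest codon was 89 (ACC).

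At codon 94 of H2A the split was of the same kind, and the windows are shown for that reason.
HIST3H2A, chr1:228645225-228645252, minus strand: caacgacgaggagCTCaacaagctgctg
HIST1H2AM, chr6:27860634-27860661, minus strand: caacgacgaggagCTCaacaagctgctt
HIST1H2AC, chr6:26124727-26124754, plus strand: caacgacgaggagCTCaacaaactgcta
HIST1H2AD, chr6:26199178-26199205, minus strand: caacgacgaggagCTAaacaagttgctg
HIST1H2AE, chr6:26217469-26217496, plus strand: caacgacgaggagCTAaataagcttcta
HIST3H2A shares its window with HIST1H2AG, HIST1H2AH and HIST1H2AL, and these 4 genes had 24.5, 16.3, 21.6 and 25.8 times their own mean. HIST1H2AM, with 1 mismatch, had 19.7 times and HIST1H2AC, with 2, had 21.0 times. HIST1H2AD, also with 2, had 1.96 times, and HIST1H2AE, with 4, had 0.165 times. The 2 genes with the triplet CTA were the 2 without the peak. HIST1H2AE had its own highest codon at 122 instead (26.4 times).

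Identical windows had nearly equal estimated reads in most pairs of genes. For HIST2H2BE and HIST2H2BF, 65 codons have identical windows. The ratio of their occupancies had a median of 5.65 over the 63 of these codons with a value in both, and 61 of the 63 ratios were within 5% of it. At codon 67 the estimated reads were 39107 and 39106, while the occupancies were 20.5 and 3.62. Over the 10 pairs of genes with at least 10 such codons, 96.1% of 204 ratios were within 5% of the pair's own median. Most of this was H2B, with 9 pairs and 191 ratios (95.8%), and H2A had 1 pair with 13 ratios. At codons whose windows differed by 1 or 2 letters the percentage was 18.1 over 47 pairs, and at 3 or more mismatches it was 3.35 over 49 pairs. For H2B alone these were 18.3 and 3.91. In the 4 pairs with estimated reads on both sides, all of them H2B, the summed reads at identical windows differed by 1.01-fold at most. Their occupancies differed by up to 5.71-fold. Whether the same reads were counted for both genes was not tested.

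**Figure D5:**
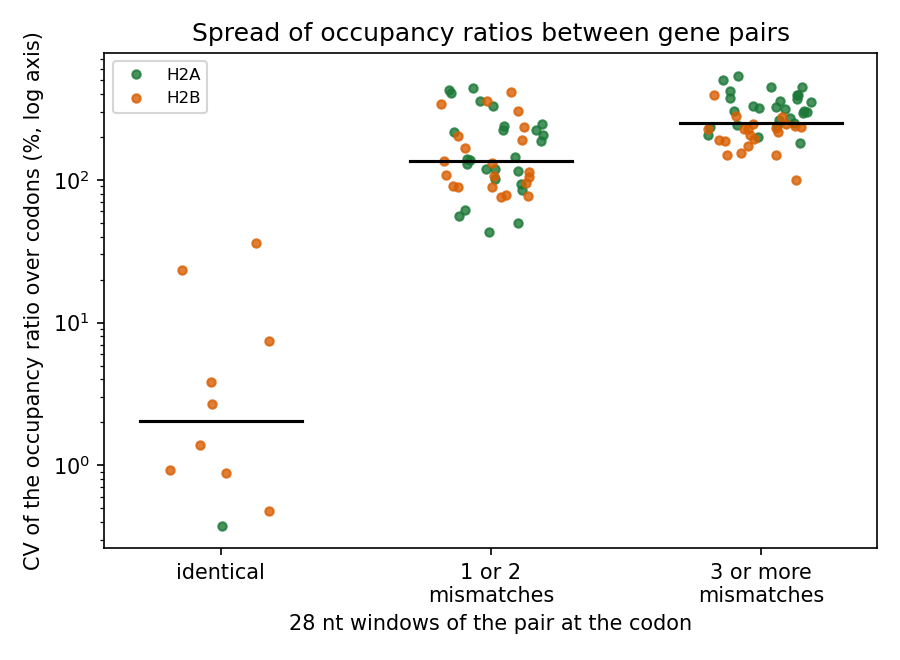
Spread (coefficient of variation, log axis) of the codon-by-codon occupancy ratio between 2 genes of a family, for codons whose 28 nt windows are identical, differ by 1 or 2 letters, or by 3 or more. Each point is a pair with at least 10 codons and bars are medians, which are 2.03%, 135% and 251%. Of the 10 pairs with identical windows 9 are H2B.

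Within a gene, codons with shared windows carried the higher values in most members. The mean occupancy was higher at shared than at unique windows in 15 of the 18 members that have both kinds. In HIST3H2A it was 1.17 at 14 shared windows and 0.0815 at 117 unique ones, and in HIST2H2BE it was 1.26 and 0.270. The exceptions were HIST2H2BF, HIST1H2AE and HIST1H1E. Some members rested on few codons, with 2 shared windows in HIST1H1C and HIST4H4, 3 in HIST1H1E and HIST1H2AE, and 7 unique ones in HIST1H2AD. By the median over codons, HIST1H2AD was higher at unique windows (0.0271 against 0.0129) and HIST1H1E at shared ones (0.0221 against 0.0169). HIST1H1A, with its peak at codon 78, has no shared window.

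The 5′UTR of the members carried little occupancy, with a median of 0.704% of the CDS mean, against 2.86% over all transcripts and 1.47% over those of the same length, and 10 of the 22 members lay above the latter. It was highest in HIST1H1C (51.3%), HIST1H1E (26.2%), HIST1H1T (25.2%) and HIST1H2AE (19.4%). Without the 5 codons next to the start codon, HIST1H1C fell to 0.195%, HIST1H2AE to 5.37% and HIST1H1T to 0%, whereas HIST1H1E stood at 33.8%. The value of HIST1H1T rested on about 6 reads, with 10 of 11 codons at 0. HIST1H1C and HIST1H1E shared one further feature, a highest codon at position 4 (ACT). The 3′UTR was at 0.384% of the CDS mean or lower in every member, HIST1H1E being the highest.

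HIST1H3D was a case of its own. Its 5′UTR in the table had 148 codons, against a median of 12 over members, and 100 of them were above 0. The profile of this 5′UTR followed the CDS of HIST1H2AD, an H2A gene, at a shift of 13 codons, with a Spearman coefficient of 0.78 over 131 codons and at most 0.36 at shifts that differ by 3 codons or more. That stretch held 86.0% of its 5′UTR occupancy. The annotation contains a transcript that joins both genes on the minus strand (chr6:26196982-26199521), and its start codons lie 401 nt apart, which leaves a remainder of 2 when divided by 3. The 8.83% of 5′UTR occupancy in HIST1H3D thus includes positions that belong to the H2A gene in the annotation.

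The members missing from a table are named here because no value of theirs enters the counts. HIST1H1A, HIST1H1C, HIST1H1D, HIST1H2AD, HIST1H2AE, HIST1H2AH, HIST1H2AL, HIST1H2AM, HIST1H2BJ, HIST1H2BO, HIST2H2BE, HIST3H2BB and HIST1H3D had no translational efficiency. HIST2H2AA3, HIST2H2AA4, HIST1H2BC, HIST1H2BE, HIST1H2BF, HIST1H2BG, HIST1H2BN, HIST1H3E, HIST2H3A, HIST2H3C, HIST1H4C, HIST1H4E, HIST1H4H, HIST1H4I, HIST1H4J, HIST2H4A and HIST2H4B had no occupancy, so the 3 H3 genes and 7 of the 8 H4 genes with a ratio have no codon profile. Of genes known from HEK293 cells VIM, NEFL, NEFM and INA were in the translational efficiency table and GATA3 was not, and the liver, blood and leukocyte genes ALB, HBB, PTPRC and CD3E were not in it. Replicates of the whole table correlated with Pearson coefficients from 0.987 to 0.989 on the log2 scale.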

How the data were processed

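The authors trimmed RPF reads with Cutadapt, removed duplicates with cd-hit-dup, set aside rRNA and tRNA and aligned reads to the hg19 transcriptome with bowtie. For total RNA they used Hisat2 and then HTseq-count. The submitters' processing notes list cutadapt 1.16, Bowtie 1.1.2, TopHat2 2.1.1 and HTSeq 0.9.1. No source used here states the treatment of reads with several matches.

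The deposited translational efficiency values are a linear ratio per replicate, and no source used here gives their formula. The deposited occupancy values are RPF counts by the authors per in-frame codon, scaled to library size, then divided by the TPM of the transcript, with replicates combined. In 31 transcripts a CDS list broken over lines was rejoined and the value at the break was set to missing. A library depth cannot be read from either table, and its limit on a single gene is given for the members as estimated reads.

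Each gene was tested against the median of all values in R 4.3.3, using limma 3.58.1 on log2(ratio + 0.01), two-sided, with Benjamini-Hochberg adjustment over 8121 genes at an FDR of 0.05 and no filter, so fold changes are on that scale and slightly understate low genes. The test was checked on data with known answers before use. RPF and total RNA of a number come from 1 lysate. Each ratio is labelled with 1 replicate number and was taken to be formed within that pair, which the sources do not state.

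Windows of 28 nt start 13 nt before a codon. Sharing was counted over transcripts of GENCODE 44 lifted to GRCh37 on the same strand, with symbols matched through RefSeq accessions and synonyms. The worth of a read was sought from at most 40 of the lowest values of a transcript (at least 12, all explained at a relative tolerance of 1e-07, the smallest value being 1 read). The search was likewise checked on data with known answers, where it solved 10 of 17 transcripts, each within 10% of the true number. Other steps ran in Python 3.11.15 with scipy 1.17.1, numpy 2.4.6 and pandas 2.3.3.

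The members, the gene lists and the rule for named genes were chosen with earlier results of these data known. The rule takes all replicate values of the highest and lowest member of each protein group by ratio and of groups of up to 4 genes, members not called, the highest and lowest by occupancy, members missing from a table and those with a 3′UTR over 100 nt. Other members named, and the comparison of identical windows, were chosen after their values had been seen. Alternatives were other pseudocounts (0.1 and 0.001), leaving out genes with a mean ratio under 0.05 or a replicate, a replicate block, and other choices of codons.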

Additional observations from a re-analysis of the deposited data

How the results depend on the processing

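The counts of 25 members called higher and 0 lower were 25 and 0 with a pseudocount of 0.1 or 0.001, without genes of a mean ratio under 0.05, without any 1 replicate and with the replicate block, in which each replicate's own median was removed. Of 182 values of single members under these 7 alternatives 181 kept direction and call, and HIST1H3E turned from -0.04 to 0.017 without replicate 2 (-0.073 without replicate 3), not called in any case, with adjusted p from 0.436 to 0.829 by limma over its alternatives. On the log2 scale a pseudocount of 0.1 lowered the group medians to 6.50 for H2A, 2.82 for H2B, 8.59 for H3 and 5.93 for H4 (6.79, 3.08, 8.89 and 6.22 with 0.01), and without 1 replicate that of H2A ranged from 6.73 to 6.83 (6.73 without replicate 2). HIST1H1E went from 2.98 to 2.51 without replicate 1 and was still called.

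The median over codons in place of the mean took the group medians of CDS occupancy to 0.0170 for H1, 0.0113 for H2A, 0.0247 for H2B, 0.0116 for H3 and 0.00685 for H4. Without the first 5 and last 5 codons they were 0.105, 0.140, 0.223, 0.112 and 0.358. Codons with a unique window gave 0.0766 for H2A, 0.176 for H2B and 0.323 for H4. H3 had no such codon, because the annotated entry that joins HIST1H2AD and HIST1H3D counts as another gene. It holds all 384 coding 28-mers of HIST1H3D, and any further gene holds at most 19. The same entry holds 359 of the 366 coding 28-mers of HIST1H2AD, which kept 7 unique codons. The ratio of the first to the last part of the CDS was 0.279 without these end codons, 0.426 with 2 parts in place of 3 and 0.518 with unique windows. The 5′UTR percentage was 0.0995 without the 5 codons next to the start. The profile correlation was 0.71 (H2A) and 0.84 (H2B) without end codons, and 0.56 and 0.70 with unique windows. These values have no replicate error.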
